A study of Homo sapiens with 9 samples.

Results

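Chromosomes 10 and 11 were described gene by gene along their length in 3 subclones of SK-MEL-5, a long-established line of human melanoma cells with a mutated BRAF gene. The subclones SC10, SC07 and SC01 were each grown from a single parental cell by limiting dilution without drug, and all 9 libraries, 3 per clone, came from untreated cells. They were selected by their first response to the BRAF inhibitor PLX-4720, and which response each clone gave is not in the labels. Each clone is a single clone, so a difference between clones cannot be told apart from a difference between single founder cells or between batches of culture or extraction. Whether a clone's libraries are separate cultures is not stated either, so the p-values rest on a spread that may be technical.

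The members were the rows of the gene count table on GRCh38 chromosome 10 or 11 that reached 1 CPM (counts scaled to a common library total) in at least 3 of the 9 libraries. They numbered 1354 of the 14637 genes past this minimum and of the 60675 rows of the whole table, with 544 on chromosome 10 and 810 on chromosome 11. By arm, 118 lay on 10p, 426 on 10q, 279 on 11p and 531 on 11q. Both chromosomes were chosen because their genes stood higher in SC10 alone. A small median difference between SC07 and SC01 is part of that choice. Differences between SC10 and another clone are therefore given as descriptions with their error and without p-values. Where members are counted as called higher or lower in SC10, the count describes the contrast the chromosomes were chosen on and supports nothing. Tests of single genes are given for SC07 against SC01.

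Chromosome 10 carries VIM, the vimentin filament, and ITGB1, an integrin subunit, on its short arm, and genes of growth signalling, repair and metabolism on its long arm. Chromosome 11 carries TYR, the tyrosinase that makes melanin, the cell cycle gene CCND1 at 11q13 and a domain of imprinted genes at 11p15, where the maternal and paternal copies are used unequally. Melanoma lines often hold uneven numbers of chromosomes, and the RNA level of many genes in such cells follows the number of copies of the gene. DNA copy number was not analysed here, and RNA alone does not give it.

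Promoters of 4 members, taken from RefSeq on GRCh38.p14 from 250 bases before to 50 bases after the RefSeq start, are shown because these genes stand for the patterns described below. TYR (chr11:89177625-89177924, plus strand) was higher in SC10 and SC07 than in SC01, SLIT1 (chr10:97185910-97186209, minus strand) and GLB1L3 (chr11:134276129-134276428, plus strand) stood far above both other clones in SC10, and SORCS1 (chr10:107164657-107164956, minus strand) stood far below SC01 in both other clones. Capitals mark CATGTG in TYR, the core of the element through which the lineage factor MITF is known to act on this gene, and mark every CG in the other 3.
TYR: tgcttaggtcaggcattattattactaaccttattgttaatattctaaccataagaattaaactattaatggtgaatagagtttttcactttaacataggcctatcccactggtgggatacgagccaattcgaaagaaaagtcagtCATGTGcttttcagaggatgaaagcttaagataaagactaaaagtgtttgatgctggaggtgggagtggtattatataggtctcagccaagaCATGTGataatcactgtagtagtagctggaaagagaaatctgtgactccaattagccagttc
SLIT1: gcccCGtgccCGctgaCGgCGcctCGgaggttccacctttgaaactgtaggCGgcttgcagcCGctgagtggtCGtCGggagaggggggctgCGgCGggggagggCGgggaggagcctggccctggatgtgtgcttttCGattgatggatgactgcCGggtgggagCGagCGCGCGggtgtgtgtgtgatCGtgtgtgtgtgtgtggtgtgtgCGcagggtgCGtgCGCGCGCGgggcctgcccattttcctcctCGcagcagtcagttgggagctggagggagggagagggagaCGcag
GLB1L3: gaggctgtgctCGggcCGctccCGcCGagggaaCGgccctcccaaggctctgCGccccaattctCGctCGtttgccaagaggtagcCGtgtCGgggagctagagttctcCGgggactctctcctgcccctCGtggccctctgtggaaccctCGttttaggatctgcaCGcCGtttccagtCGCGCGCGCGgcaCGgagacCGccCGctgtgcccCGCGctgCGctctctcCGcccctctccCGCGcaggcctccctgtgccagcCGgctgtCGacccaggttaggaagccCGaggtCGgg
SORCS1: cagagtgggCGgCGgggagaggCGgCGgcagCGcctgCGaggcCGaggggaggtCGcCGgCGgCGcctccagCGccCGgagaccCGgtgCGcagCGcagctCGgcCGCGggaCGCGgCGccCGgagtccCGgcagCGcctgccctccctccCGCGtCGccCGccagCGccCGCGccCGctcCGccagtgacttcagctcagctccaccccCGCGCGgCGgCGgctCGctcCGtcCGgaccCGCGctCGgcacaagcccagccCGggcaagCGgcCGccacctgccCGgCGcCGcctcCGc
The TYR promoter held CATGTG at 2 places, beginning 104 and 12 bases before the start. A search of both strands for CATGTG and its reverse CACATG, which do not overlap CACGTG, found at least 1 of them in 11.1% of the 35116 promoters of the table. The 300 bases of TYR held 2 CG, and 11% of promoters held fewer. SLIT1 held 27 CG, GLB1L3 33 and SORCS1 52, against a median of 14 over all promoters, and SORCS1 held more than 99.2% of them. Of the 1354 members, 990 matched the promoter table by symbol. A match of letters is a description and says nothing of whether a factor was bound.

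The libraries held between 30224066 and 39454087 counts. No pair of libraries agreed within sampling noise: the chi-square of their counts, divided by its degrees of freedom, was 2.53 to 11.3 within a clone and 59.4 to 191 across clones. SC10 replicate 3 was the farthest from the other libraries of its clone, at 10.2 and 11.3, against 2.53 between those. Markers of the pigment cell lineage summed to 15300 to 15500 CPM in SC10, 24500 to 25000 in SC07 and 10900 to 11500 in SC01, with 7 of 8 markers present. No counts were found for SOX10, and a gene without a row of its own would read the same. Whether the cells lack SOX10 is therefore not shown. Immune markers summed to at most 3.69 CPM in any library, and the fibroblast list, which ran from 335 to 371 CPM in SC10, 427 to 489 in SC07 and 132 to 137 in SC01, was almost all LUM. The part of these differences in the results below was not tested.

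By their median, genes of both chromosomes stood higher in SC10 than in SC07 and SC01, and the medians of SC07 and SC01 lay close to each other. Both are what the chromosomes were chosen for. To set a level for each library, every member's log2 CPM was taken as its deviation from the gene's mean over the 9 libraries, and the median over all genes was subtracted from the median over the members. On chromosome 10 this level was 0.19, 0.19 and 0.17 in the SC10 libraries, −0.10, −0.09 and −0.12 in the SC07 libraries and −0.07, −0.10 and −0.10 in the SC01 libraries. On chromosome 11 it was 0.18, 0.18 and 0.19 in SC10, −0.10, −0.11 and −0.09 in SC07 and −0.08, −0.07 and −0.08 in SC01. The 3 SC10 libraries lay above the other 6 on both chromosomes, while the libraries of SC07 and SC01 overlapped on chromosome 10 and were adjacent without overlap on chromosome 11. As a share of all counts in the library, the members of chromosome 10 took 3.03, 3.04 and 3.01% in SC10, 2.59, 2.58 and 2.55% in SC07 and 2.54, 2.51 and 2.501% in SC01. Those of chromosome 11 took 6.14, 6.14 and 6.18% in SC10, 5.24, 5.21 and 5.26% in SC07 and 5.62% in each SC01 library. The share of chromosome 11 stood between the other clones in SC01. A share is set mainly by the genes with the most counts, while the median counts each gene once.

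**Figure D1:**
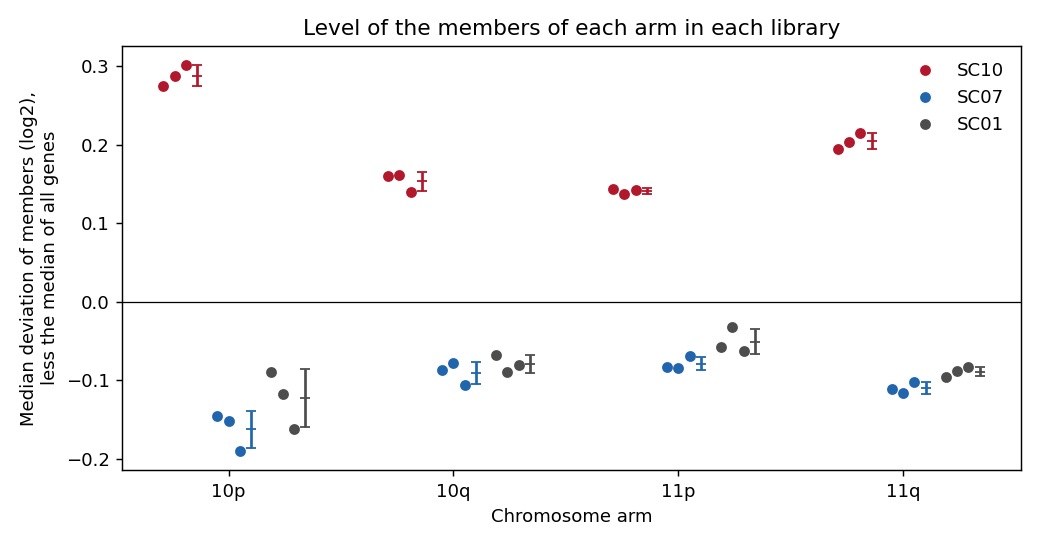
Level of the members of each chromosome arm in each library, as the median deviation of log2 CPM from the gene's mean over 9 libraries, less the median over all genes (log2 units). Points are libraries and bars the mean ± SD of 3, and the SC10 libraries of each arm lie above 0.13 while all others lie below 0.

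The median log2 change of SC10 over SC07 was 0.30 on chromosome 10 (1.23-fold) and 0.28 on chromosome 11 (1.21-fold), against −0.01 over all 14637 genes. These were the highest and second highest medians of the 23 chromosomes compared, ahead of chromosome 5 at 0.25, chromosome 22 at 0.23 and chromosome 8 at 0.19. For SC10 over SC01 the medians were 0.30 and 0.26, against −0.0024 over all genes, and ranked 4 and 6 among the 23 chromosomes, behind others such as chromosome 8, at 0.46. For SC07 over SC01 they were −0.01 and −0.02, against 0.0043 over all genes. Single members were spread more widely there, with quartiles of −0.36 and 0.27 on chromosome 10 and −0.31 and 0.32 on chromosome 11. The quartiles for SC10 over SC07 were 0.10 and 0.53 on chromosome 10 and 0.10 and 0.51 on chromosome 11. For chromosomes 5, 22 and 8 the medians of SC07 over SC01 were −0.22, −0.35 and 0.30, further from 0 than those of chromosomes 10 and 11. A higher level in SC10 alone is what chromosomes 10 and 11 were chosen for. All levels and changes are relative to the total of a library and not per cell.

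**Figure D2:**
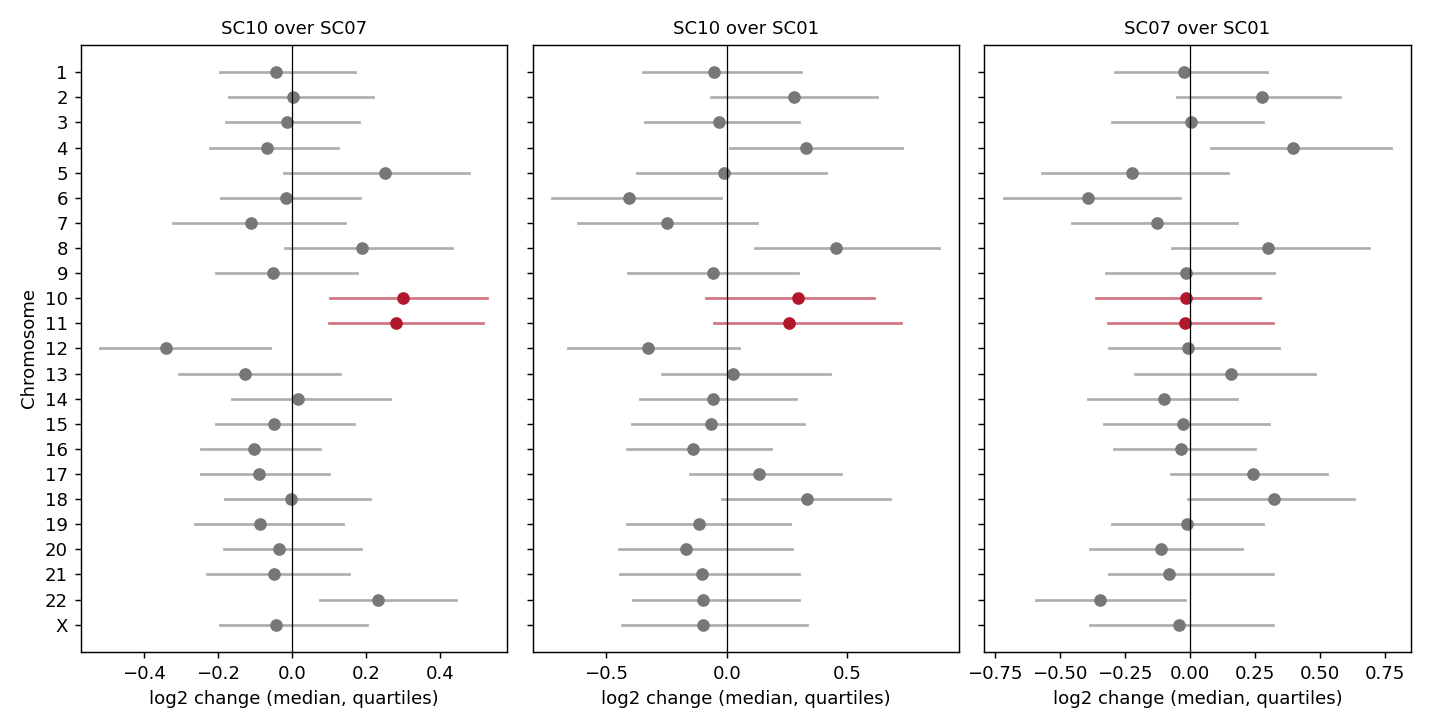
Median log2 change of each chromosome (points) with its quartiles (lines) for SC10 over SC07, SC10 over SC01 and SC07 over SC01. Chromosomes 10 and 11 (red) have medians of 0.30 and 0.28, 0.30 and 0.26, and −0.01 and −0.02 in the 3 panels.

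Single genes were called by the quasi-likelihood test of edgeR at a Benjamini-Hochberg adjusted p below 0.05 over 18009 genes. For SC10 over SC07, 343 of 544 members of chromosome 10 were called higher and 27 lower, and 521 and 52 of 810 on chromosome 11, where 54.6% of all genes were called, 27.8% higher and 26.7% lower. For SC10 over SC01 the counts were 315 higher and 96 lower on chromosome 10 and 450 higher and 139 lower on chromosome 11, where 72.7% of all genes were called, 37.0% higher and 35.6% lower. The 3 SC10 libraries lay above all other 6 in 261 members of chromosome 10 and 359 of chromosome 11 (48.0% and 44.3%, against 18.3% of all genes), and below all other 6 in 10 and 23 members (16.2% of all genes). The chromosomes were chosen on this contrast, so nothing further is read from these counts. The comparison of SC07 with SC01 called 175 members of chromosome 10 higher in SC07 and 178 lower, and 271 and 280 on chromosome 11, against 69.0% of all genes called, 35.6% higher and 33.4% lower. As shares of the members these were 32.2% and 32.7%, and 33.5% and 34.6%, near the shares over all genes. The chromosomes were chosen for a level higher in SC10 alone, so these shares too are descriptions.

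Along both chromosomes the higher level in SC10 varied in size and was missing from some stretches, against SC07 as well as against SC01. In windows of 10 Mb, 14 of 14 on each chromosome had a median above 0 for SC10 over SC07 and likewise for SC10 over SC01. For SC10 over SC07 the window medians ran from 0.16 to 0.50 on chromosome 10 and from 0.13 to 0.57 on chromosome 11. For SC07 over SC01, 8 and 7 of the 14 windows had a median above 0, with window medians from −0.37 to 0.14 and from −0.15 to 0.14. A running median over 21 neighbouring members was above 0 in 99.6% of windows of chromosome 10 and 99.9% of chromosome 11 for SC10 over SC07, and in 96.2% and 96.1% for SC10 over SC01. Its lowest values for SC10 over SC07 were just below 0, at −0.0094 around ZCCHC24 at 79.4 Mb of chromosome 10 and −0.0056 around RNF169 at 74.7 Mb of chromosome 11. For SC10 over SC01 the lowest were −0.12 around IFIT3 on 10q and −0.11 around LMO1 at 8.22 Mb of chromosome 11.

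By median the short arm of chromosome 10 stood out from its long arm, though not in every window of 10 Mb. The 118 members of 10p had a median of 0.45 for SC10 over SC07 and 0.45 for SC10 over SC01, and the 426 members of 10q had 0.24 and 0.26. For SC10 over SC01 the first window of 10p had a median of 0.12, and its later windows 0.31 to 0.64. The last window of 10q had 0.41 for SC10 over SC07 and 0.47 for SC10 over SC01, where the lowest windows of 10q had 0.16 and 0.11. In the SC10 libraries the level of 10p was 0.28, 0.29 and 0.30, in SC07 −0.15, −0.15 and −0.19 and in SC01 −0.09, −0.12 and −0.16. The SC10 libraries lay above the others by more than the spread within any clone, and those of SC07 and SC01 overlapped. On 10p, 95.8% of members had a positive change of SC10 over SC07, and 1 of 118 was called lower. On chromosome 11 the order of the arms was the other way, with medians of 0.20 on 11p and 0.33 on 11q for SC10 over SC07 and 0.16 and 0.29 for SC10 over SC01.

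**Figure D3:**
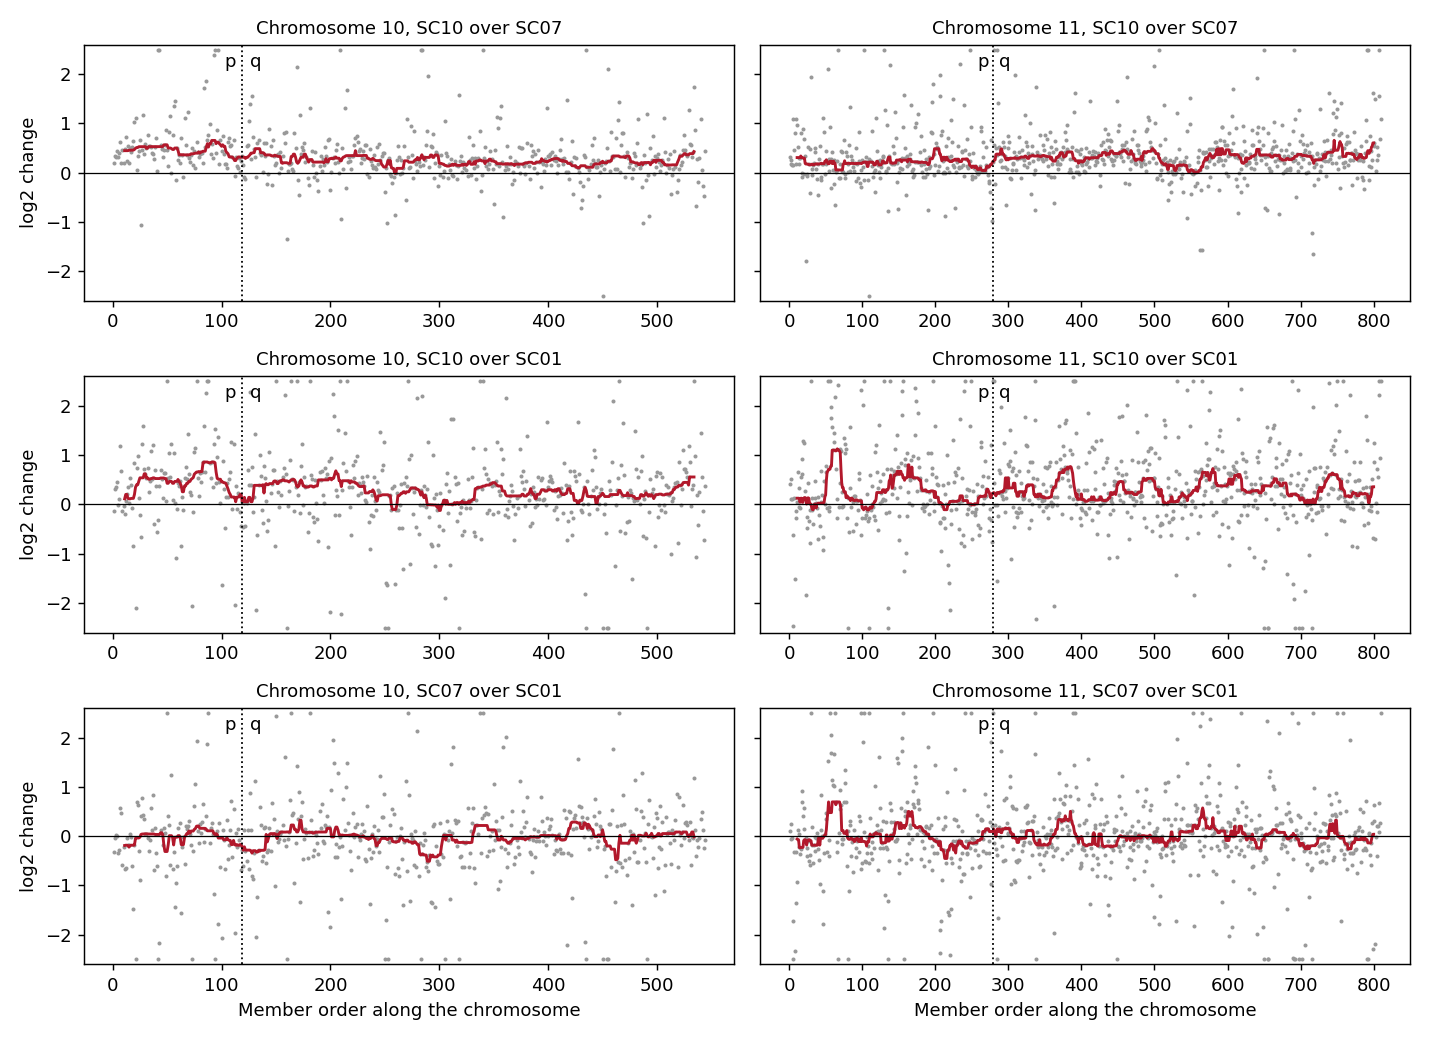
Log2 change of each member (grey points, drawn at ±2.5 where larger) and the running median of 21 members (red line) by the order of members along chromosomes 10 and 11. The red line stays above 0 along nearly the whole of both chromosomes for SC10 over SC07, and runs on both sides of 0 for SC07 over SC01, where it peaks at 0.69 on 11p15.

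Segments of at least 20 members were fitted by least squares with a penalty for each boundary. For SC10 over SC07, chromosome 10 divided just past the centromere between ZNF32 at 43.6 Mb and RASSF4 at 45.0 Mb, with a median of 0.46 over the 130 members before and 0.24 over the 414 after, and the same boundary was found at a minimum of 30 members. At a minimum of 15 members this boundary was not found. A stretch of 18 members at 27.2 to 31.8 Mb, from LRRC37A6P to ARHGAP12, was set apart instead with a median of 0.70. The 443 members after it, from KIF5B at 32.0 Mb on 10p, formed 1 segment with a median of 0.24. Chromosome 11 divided between ETS1 and C11orf45, near the tip of 11q, with a median of 0.28 over 788 members and 0.63 over the last 22. At a minimum of 30 members it divided between H2AFX and DPAGT1 at 119 Mb instead, with medians of 0.28 and 0.40. At a minimum of 15 members the division near the tip remained. A stretch of 16 members from LIPT2 to SERPINH1, at 74.5 to 75.6 Mb, was then also set apart. Its median was −0.01, with 37.5% above 0. For SC10 over SC01 the boundaries were others. On chromosome 10, 20 members from ZNF503 to TSPAN14 at 75.4 to 80.5 Mb had a median of −0.10, with 40% above 0. They lay between stretches of 249 and 275 members with medians of 0.43 and 0.22. At a minimum of 15 members, 18 members from ZNF503 to MAT1A were set apart, with a median of −0.11. A minimum of 30 members is longer than this stretch and cannot set it apart. On chromosome 11 the first 55 members, from BET1L to TSSC4, had a median of 0.04, the next 23, from KCNQ1 to TRIM6, 1.12, and the remaining 732 members 0.26. For SC07 over SC01, chromosome 10 formed 1 segment at each of the 3 minimum sizes, while chromosome 11 formed 5 at a minimum of 20 members. One of these ran from IGF2 to TRIM6 on 11p15 (26 members, median 0.70) and another from KIAA1549L to PRR5L at 33.4 to 36.3 Mb (20 members, median −0.50). At a minimum of 15 members, 18 members from KIAA1549L to LDLRAD3 were set apart there, with a median of −0.55. A minimum of 30 members is longer than the stretch from KIAA1549L to PRR5L and cannot set it apart. Boundaries moved with the minimum size and are descriptions of these libraries.

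Neighbouring members higher in SC10 than in SC07 formed long runs. The longest run on chromosome 10 held 21 members from MYO3A to SVIL2P on 10p, and that on chromosome 11 held 19 from SIPA1 to PACS1 at 11q13, all higher in SC10, against 15 at most among genes higher in SC10 on any other chromosome. For SC10 over SC01 the longest were 24 on chromosome 10 and 12 on chromosome 11, against 17 on chromosome 2. Runs of genes lower in SC10 reached 22 against SC07, on chromosome 8, and 17 against SC01, on chromosome 6. The chromosomes were chosen on these contrasts, so the run lengths are descriptions. Between SC07 and SC01 the longest runs held 9 members higher and 7 lower, against 14 and 19 on other chromosomes. Log2 changes of neighbouring members were weakly correlated across genes, at 0.12 on chromosome 10 and 0.15 on chromosome 11 for SC10 over SC07, and genes are not independent replicates. Members of low, middle and high expression had medians for SC10 over SC07 of 0.39, 0.30 and 0.23 on chromosome 10 and 0.41, 0.29 and 0.24 on chromosome 11, and for SC10 over SC01 of 0.15, 0.34 and 0.34, and 0.43, 0.24 and 0.21. Protein-coding members had medians of 0.31 and 0.28, long non-coding members 0.31 and 0.43, and the 34 and 27 pseudogenes 0.06 and 0.04, although counts of pseudogenes are uncertain where reads match a parent gene. Protein-coding members had 0.35 and 0.26 for SC10 over SC01, long non-coding members −0.08 and 0.51, and pseudogenes −0.26 and −0.23, against −0.26 for pseudogenes of the other chromosomes. Strand made little difference, at 0.31 and 0.28 for members on the plus strand and 0.28 and 0.30 on the minus strand.

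The members of 10p described here differed in the order of the clones, and several act in the cytoskeleton and in adhesion. VIM, a marker of mesenchymal cells (chr10:17228259-17237593), had 543, 526 and 598 CPM in SC10, 201, 198 and 208 CPM in SC07 and 552, 547 and 539 CPM in SC01. SC07 alone was low, and the libraries of SC10 and SC01 overlapped, with a log2 change of 1.46 ± 0.046 for SC10 over SC07 and of −1.44 ± 0.046 for SC07 over SC01 (adjusted p = 1.97e-20, edgeR). ITGB1, the beta-1 integrin subunit that binds matrix (chr10:32900319-33005792), had 229, 236 and 222 CPM in SC10, 149, 154 and 144 CPM in SC07 and 204, 211 and 205 CPM in SC01. Its SC10 libraries were the highest and did not overlap the others, and SC07 was lower than SC01, at −0.47 ± 0.043 (adjusted p = 1.93e-10, edgeR). SVIL, supervillin, which ties actin to the membrane, had 112, 115 and 106 CPM in SC10, 20.3, 20.6 and 22.3 CPM in SC07 and 48.7, 47.3 and 46.1 CPM in SC01. The 3 clones did not overlap, with changes of 2.39 ± 0.054 for SC10 over SC07, 1.23 ± 0.05 for SC10 over SC01 and −1.17 ± 0.055 for SC07 over SC01.

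JCAD, a junction protein first known from endothelial cells, had 7.03, 5.73 and 5.32 CPM in SC10, 0.122, 0.0258 and 0.0896 CPM in SC07 and 2.11, 1.86 and 2.28 CPM in SC01. It was close to 0 in SC07, and its change was 6.24 ± 0.29 for SC10 over SC07. Where a clone is this close to 0, here and in other genes, the change rests on few counts and on the small count added before the logarithm. FRMD4A, a scaffold of cell polarity, averaged 17.9 ± 0.938 CPM in SC10, 2.41 ± 0.528 in SC07 and 22.2 ± 0.989 in SC01 (mean ± SD, n = 3 here and below), again with SC07 low. ZEB1, a repressor that drives the mesenchymal state, had 1.56 ± 0.0436 CPM in SC10, 1.15 ± 0.352 in SC07 and 4.85 ± 0.225 in SC01, and here SC01 was the high clone. CELF2, a regulator of splicing, was the one member of 10p called lower in SC10 than in SC07, at 8.88 ± 1.71 CPM in SC10, 18.7 ± 0.596 in SC07 and 14 ± 0.189 in SC01. Its SC01 libraries lay between those of the other clones without overlap.

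The listed tumour suppressors and repair genes of chromosome 10 differed in the order of the clones. Of 14 listed members, 6 were higher in SC10 than in SC07 and 0 lower, 4 were higher and 6 lower in SC10 than in SC01, and 2 were higher and 6 lower in SC07 than in SC01, with medians of 0.19, −0.07 and −0.24. The medians over all members of chromosome 10 were 0.30, 0.30 and −0.01. Of those members, 63.1% were higher and 4.96% lower, 57.9% and 17.6%, and 32.2% and 32.7% in the same comparisons. ERCC6, which acts in transcription-coupled repair, had 6.32 ± 0.837 CPM in SC10, 5.64 ± 0.753 in SC07 and 11.4 ± 0.2003 in SC01, and fell in SC07 against SC01 by 1.02 on the log2 scale. FAS, the death receptor, had 10.1, 10.7 and 9.51 CPM in SC10, 7.82, 7.99 and 6.9 CPM in SC07 and 9.28, 7.55 and 9.37 CPM in SC01, and its clones lay within 0.41 of each other on the log2 scale. The change of FAS between SC07 and SC01 did not pass the threshold (adjusted p = 0.0822). MGMT, which removes alkyl groups from guanine, averaged 29.2 ± 1.86 CPM in SC10, 25 ± 1.68 in SC07 and 23.6 ± 2.09 in SC01, and the difference between SC07 and SC01 likewise missed the threshold (adjusted p = 0.323).

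Among the listed ligands, receptors and kinases of chromosome 10, single members differed widely between the clones while the medians of the list were 0.32, 0.12 and −0.08 for SC10 over SC07, SC10 over SC01 and SC07 over SC01. SLIT1, a ligand of ROBO receptors known from axon guidance (chr10:96998038-97185920), had 24.8, 23.1 and 20.1 CPM in SC10, 2.04, 1.91 and 1.82 CPM in SC07 and 0.165, 0.126 and 0.239 CPM in SC01. SC10 stood far above both other clones, and SC07 above SC01, with changes of 3.56 ± 0.12, 6.97 ± 0.17 and 3.41 ± 0.25 for SC10 over SC07, SC10 over SC01 and SC07 over SC01. NRG3, a ligand of the receptor ERBB4, had 51.9, 47.4 and 45.9 CPM in SC10, 39.7, 39.1 and 37.6 CPM in SC07 and 2.66, 2.94 and 3.32 CPM in SC01. Both SC10 and SC07 were high and SC01 low, and NRG3 rose in SC07 over SC01 by 3.71 ± 0.084 (adjusted p = 7.55e-24, edgeR). DKK1, a secreted inhibitor of Wnt signalling, had the opposite order, at 0.0979 ± 0.0629 CPM in SC10, 0.255 ± 0.254 in SC07 and 2.82 ± 0.184 in SC01. FGFR2, a receptor of fibroblast growth factors, was highest in SC07, at 5.61 ± 0.199 CPM in SC10, 10.3 ± 0.493 in SC07 and 6.22 ± 0.815 in SC01. Of the 11 listed members, 6, 6 and 4 were higher and 2, 2 and 5 lower in the comparisons of SC10 with SC07, SC10 with SC01 and SC07 with SC01. The remaining 3, 3 and 2 did not pass the threshold, which 68.0%, 75.6% and 64.9% of the members of chromosome 10 passed in the same comparisons.

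Other members of 10q that separated SC01 from both other clones ran in each direction. DNAJC12, a co-chaperone of the amino acid hydroxylases, had 22.4, 21.5 and 22.3 CPM in SC10, 9.38, 8.17 and 8.99 CPM in SC07 and 1.4, 1.11 and 1.17 CPM in SC01. The clones did not overlap and fell in the order SC10, SC07, SC01, with 2.84 ± 0.12 for SC07 over SC01 (adjusted p = 1.56e-17, edgeR). SORCS1, a sorting receptor (chr10:106573663-107164534), had 1.04, 0.475 and 0.797 CPM in SC10, 0.122, 0.103 and 0.0896 CPM in SC07 and 31.2, 29.8 and 31.5 CPM in SC01. It was high in SC01 alone, with changes of −5.31 ± 0.13 for SC10 over SC01 and −8.15 ± 0.18 for SC07 over SC01. LRMDA, a gene needed for melanocyte differentiation, had 0.622 ± 0.281 CPM in SC10, 0.514 ± 0.0955 in SC07 and 5.46 ± 0.232 in SC01. MYOF, myoferlin, a protein of membrane repair, had 30.5 ± 2.58 CPM in SC10, 10.2 ± 0.518 in SC07 and 202 ± 10.6 in SC01, with SC01 high and SC07 low. OGDHL, a protein of the oxoglutarate dehydrogenase family, went the other way, at 136 ± 0.962 CPM in SC10, 118 ± 6.17 in SC07 and 21.7 ± 0.744 in SC01.

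**Figure D4:**
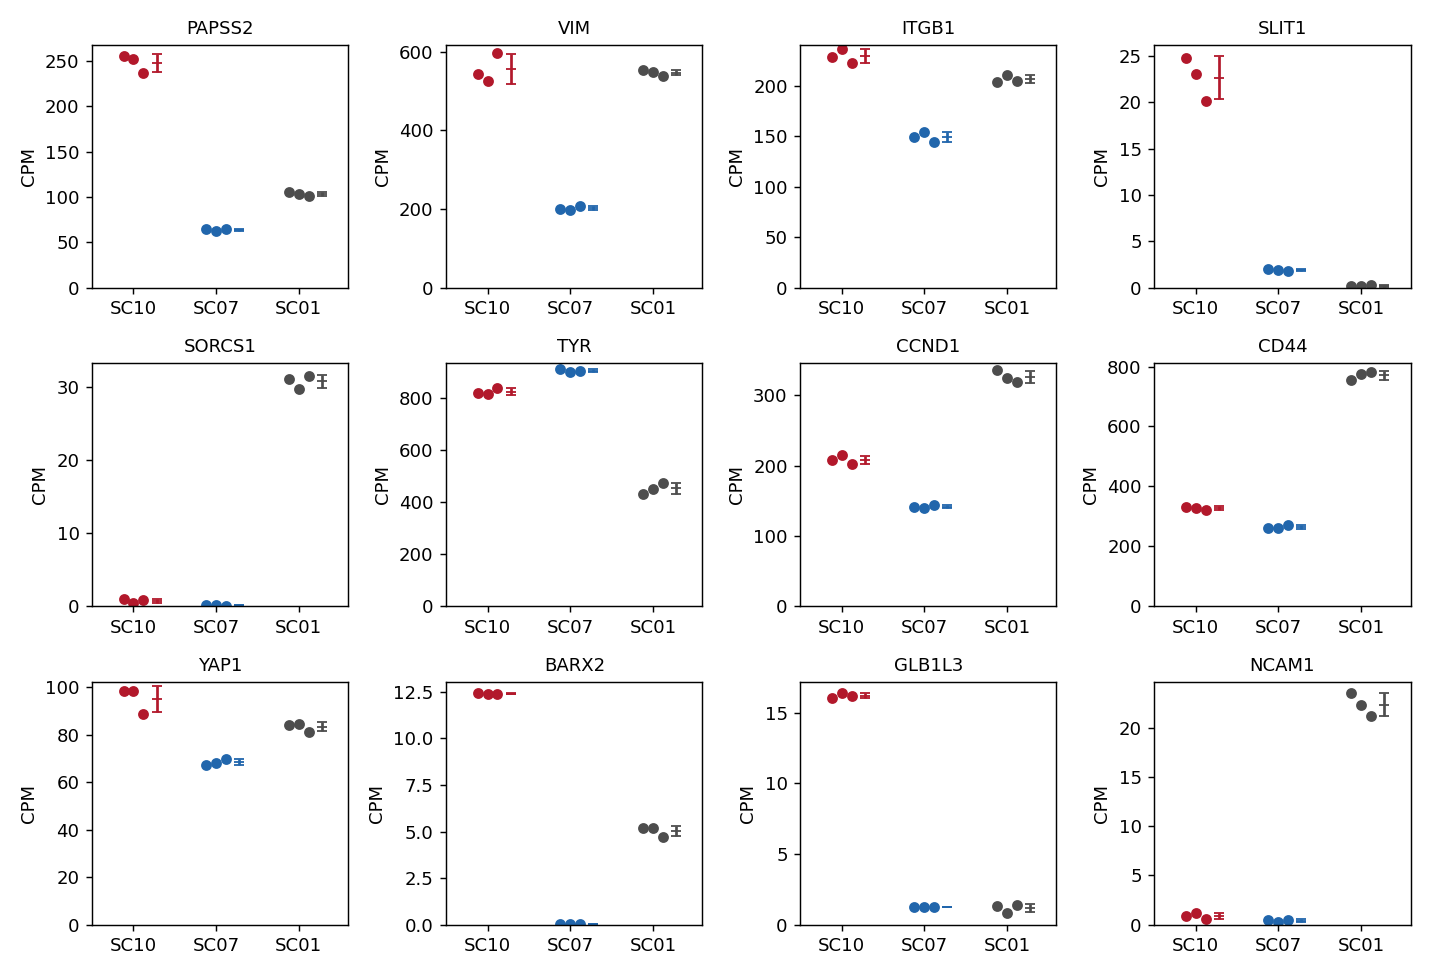
Levels of 12 members in each library (points, TMM-scaled CPM) with the mean ± SD of 3 libraries (bars), by clone, each panel on its own axis from 0. GLB1L3 and SLIT1 are high in SC10, NCAM1 and SORCS1 in SC01, and VIM is low in SC07.

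Of 25 listed metabolic genes of chromosome 10, 15 were higher and 0 lower in SC10 than in SC07, where 63.1% and 4.96% of all members of the chromosome were. The counts were 16 higher and 5 lower in SC10 than in SC01, against 57.9% and 17.6% of those members, and 14 higher and 9 lower in SC07 than in SC01, against 32.2% and 32.7%. PAPSS2, which makes the sulfate donor of the cell, had 256, 252 and 237 CPM in SC10, 64.4, 62.1 and 64.3 CPM in SC07 and 105, 104 and 101 CPM in SC01. SC10 was the highest and SC07 the lowest, and no libraries of different clones overlapped. GOT1, the cytosolic aspartate aminotransferase, had 303, 288 and 324 CPM in SC10, 272, 268 and 289 CPM in SC07 and 68.9, 67.3 and 69.2 CPM in SC01. Here SC10 and SC07 were close and both lay well above SC01, with 2.01 ± 0.049 for SC07 over SC01 (adjusted p = 3.06e-23, edgeR). MAT1A, which makes S-adenosylmethionine, was high in SC01, at 113 ± 2.22 CPM in SC10, 106 ± 2.11 in SC07 and 279 ± 14.5 in SC01. HK1, the first enzyme of glycolysis, had 255, 245 and 249.9 CPM in SC10, 159, 148 and 158 CPM in SC07 and 133, 139 and 138 CPM in SC01, and PFKP, the platelet form of phosphofructokinase, had 179 ± 3.97 CPM in SC10, 115 ± 4.2 in SC07 and 78.1 ± 1.78 in SC01. SCD, the desaturase of fatty acids, differed between SC07 and SC01 by 1.12 ± 0.043 (adjusted p = 1.44e-18), and its SC10 and SC07 libraries overlapped.

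On 11p15, a block of neighbouring genes was higher in SC07 and in SC10 than in SC01. From KCNQ1 to CARS, 9 members in a row within 2.445 to 3.058 Mb were called higher in SC07 than in SC01, with changes from 0.69 to 3.63 and a median of 1.67. For SC10 over SC01 the same 9 ran from 0.72 to 4.56 with a median of 1.56, and both comparisons share the SC01 libraries. CDKN1C, the p57 inhibitor of cyclin-dependent kinases (chr11:2883213-2885773), had 17.1, 19.4 and 17.7 CPM in SC10, 15.3, 14.1 and 15 CPM in SC07 and 4.09, 4.71 and 5.09 CPM in SC01. SC01 was low, and CDKN1C rose in SC07 over SC01 by 1.68 ± 0.095 (adjusted p = 7.72e-15, edgeR). KCNQ1OT1, the long non-coding RNA that silences neighbouring genes on the paternal copy (chr11:2608328-2699994), had 18.4, 19.9 and 11.4 CPM in SC10, 19.7, 21.9 and 20 CPM in SC07 and 5.33, 4.55 and 4.91 CPM in SC01. SC10 replicate 3 lay below the other 2 of its clone, and every library of SC10 and SC07 lay above every library of SC01, with 2.06 ± 0.21 for SC07 over SC01 (adjusted p = 4.05e-05).

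KCNQ1, the potassium channel subunit in whose span that RNA lies on the opposite strand, averaged 1.71 ± 0.25 CPM in SC10, 0.898 ± 0.0943 in SC07 and 0.0685 ± 0.0122 in SC01. Whether counting used strand is not given in the sources used here, so reads of KCNQ1 and KCNQ1OT1 cannot be fully told apart. NAP1L4, a histone chaperone, had 649, 647 and 670.0 CPM in SC10, 774, 768 and 751 CPM in SC07 and 237, 237 and 246 CPM in SC01. SC07 was the highest here, SC10 next and SC01 the lowest, with no overlap. PHLDA2, which restrains placental growth in mice, had 70.7 ± 0.695 CPM in SC10, 59 ± 4.55 in SC07 and 29.2 ± 2.04 in SC01, and SLC22A18, a membrane transporter, had 264 ± 3.7 CPM in SC10, 254 ± 14.5 in SC07 and 123 ± 4.09 in SC01. The block was bounded by TSSC4 and OSBPL5, neither of which was called higher. TSSC4 had a change of −0.08 ± 0.059 for SC07 over SC01 (adjusted p = 0.265), and OSBPL5, an oxysterol-binding protein, fell by 0.33. Of the 10 listed members of the imprinted region, 8 were higher and 1 lower in SC07 than in SC01 (median 1.29), 8 and 1 in SC10 than in SC01 (median 1.36) and 5 and 1 in SC10 than in SC07 (median 0.16). Over all members of 11p the shares were 34.1% and 35.1%, 51.3% and 20.1%, and 54.8% and 8.24%. IGF2, the growth factor at the edge of the imprinted region, had 4.0 ± 0.216 CPM in SC10, 0.92 ± 0.0589 in SC07 and 0.32 ± 0.116 in SC01, but 75% of its exon bases overlap another gene.

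**Figure D5:**
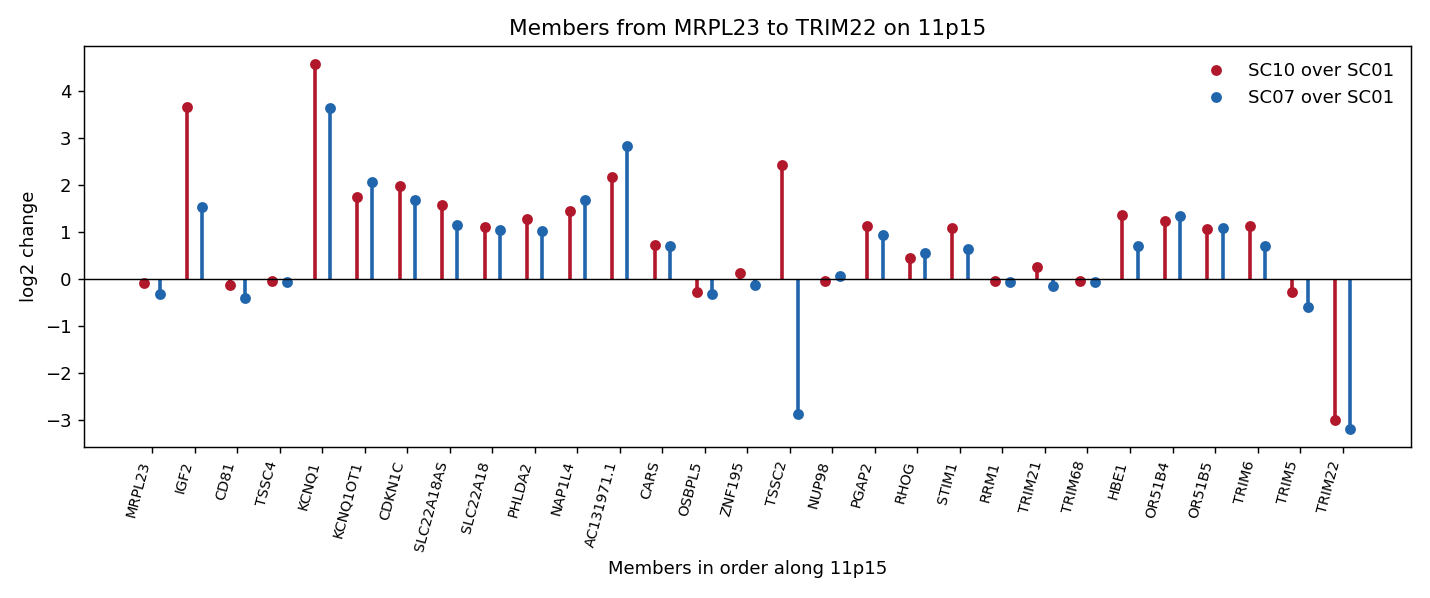
Log2 change of the members from MRPL23 to TRIM22 in their order along 11p15, for SC10 over SC01 (red) and SC07 over SC01 (blue), which share the SC01 libraries. The 9 members from KCNQ1 to CARS lie between 0.69 and 4.56 in both comparisons.

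Further along 11p15 single members rose beside others that did not. STIM1, the calcium sensor of the endoplasmic reticulum, had 109.6 ± 4.56 CPM in SC10, 80.4 ± 4.73 in SC07 and 51.6 ± 0.955 in SC01. NUP98 of the nuclear pore lay beside these genes and had 195 ± 14.3 CPM in SC10, 209.9 ± 6.76 in SC07 and 202 ± 4.96 in SC01, and RRM1, a subunit of ribonucleotide reductase, had 149 ± 4.17 CPM in SC10, 147 ± 2.93 in SC07 and 154 ± 3.64 in SC01. The change of SC07 over SC01 missed the threshold for NUP98 (adjusted p = 0.317, edgeR) and for RRM1 (adjusted p = 0.169). TRIM6, TRIM5 and TRIM22, neighbouring genes of antiviral defence, moved apart, with changes of 0.70 ± 0.071, −0.61 ± 0.061 and −3.18 ± 0.15 for SC07 over SC01. HBE1, the embryonic globin gene, had 163 ± 7.8 CPM in SC10, 104 ± 3.64 in SC07 and 64.1 ± 1.99 in SC01, but 90% of its exon bases overlap another gene, so those counts may not be its own.

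At 33.4 to 36.3 Mb of 11p, SC07 lay below SC01 in most of 20 members from KIAA1549L to PRR5L, of which 20% had a positive change. This segment is shorter than the minimum of 30 members, which therefore cannot set it apart. CD44, the receptor of hyaluronan (chr11:35138870-35232402), had 333, 329 and 322 CPM in SC10, 260.3, 259 and 271 CPM in SC07 and 755, 775 and 782 CPM in SC01. SC01 was high, SC10 and SC07 were low and did not overlap, and CD44 had a log2 change of −1.55 ± 0.041 for SC07 over SC01 (adjusted p = 2.23e-22, edgeR). CD59, which shields cells from complement, had 700.1, 706 and 751 CPM in SC10, 408, 399 and 385 CPM in SC07 and 728, 729.5 and 745 CPM in SC01. This gene had the pattern of VIM instead, with SC10 and SC01 together and SC07 low, at −0.89 ± 0.042 for SC07 over SC01. CAT, the catalase that removes hydrogen peroxide, went against the segment, at 85.6 ± 0.351 CPM in SC10, 157 ± 1.42 in SC07 and 119 ± 2.12 in SC01. CAT was also among the 23 members of chromosome 11 whose SC10 libraries lay below all others, with a change of −0.88 ± 0.042 for SC10 over SC07.

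Adhesion genes of chromosome 11 were ordered alike between SC07 and SC01. All 7 listed members measured, CD44, NCAM1, CADM1, JAM3, CD151, CD82 and NECTIN1, were lower in SC07 than in SC01 (median −1.55) and higher in SC10 than in SC07 (median 0.77). Of all members of chromosome 11, 34.6% were lower in SC07 than in SC01. In SC10 over SC07, on which the chromosome was chosen, 64.3% were higher. Against SC01, 2 of the listed members were higher in SC10, CD151 and NECTIN1, and 5 were lower, where 55.6% and 17.2% of all members were. NCAM1, a neural adhesion molecule, had 0.845, 1.19 and 0.591 CPM in SC10, 0.487, 0.284 and 0.478 CPM in SC07 and 23.5, 22.3 and 21.2 CPM in SC01. SC01 was high and the other clones were near 1 CPM or below, with −5.76 ± 0.17 for SC07 over SC01 (adjusted p = 1.89e-21, edgeR). CADM1, an adhesion molecule of the immunoglobulin family, had 11.1, 12 and 11.5 CPM in SC10, 7.06, 6.26 and 6.96 CPM in SC07 and 97.7, 97.2 and 96.5 CPM in SC01. SC01 stood above SC10 and SC10 above SC07, without overlap, as it did for JAM3, a junction molecule, at 36.4 ± 2.68 CPM in SC10, 12.9 ± 1.2 in SC07 and 58.9 ± 1.05 in SC01. CD82, a tetraspanin, had the same order without overlap, at 26.4 ± 0.396 CPM in SC10, 23.6 ± 1.01 in SC07 and 40.3 ± 1.62 in SC01. MCAM, THY1 and ESAM of this list were not among the members.

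On 11q13, 13 of 16 listed members were higher in SC10 than in SC07 and 0 lower, with a median of 0.32, where 69.3% of all members of 11q were higher and their median was 0.33. In SC07 against SC01, 1 was higher and 10 lower, with a median of −0.22, where 33.1% and 34.3% of all members of 11q were. CCND1, cyclin D1, which drives cells into DNA synthesis (chr11:69641087-69654474), had 207, 215 and 203 CPM in SC10, 142, 139 and 143 CPM in SC07 and 336, 324 and 319 CPM in SC01. The clones did not overlap, SC01 was the highest and SC07 the lowest, and CCND1 had a log2 change of −1.21 ± 0.042 for SC07 over SC01 (adjusted p = 1.26e-19, edgeR). FOSL1, a subunit of the AP-1 factor, had the same order, at 23.9 ± 0.55 CPM in SC10, 16.7 ± 0.738 in SC07 and 50.5 ± 3.29 in SC01. MYEOV, a neighbour of CCND1, had 5.56, 6.17 and 6.67 CPM in SC10, 0.822, 1.13 and 0.806 CPM in SC07 and 3.3, 2.31 and 3.95 CPM in SC01, and SC10 was the highest here. PPFIA1, which lies on the other side of CCND1 and encodes a liprin of cell edges, had 257 ± 18.1 CPM in SC10, 227 ± 6.8 in SC07 and 227 ± 3.71 in SC01. FADD, an adaptor of death receptors in the same stretch, had 36.3 ± 1.001 CPM in SC10, 34.7 ± 1.5 in SC07 and 46.9 ± 2.91 in SC01, and CTTN, cortactin, had 1177 ± 35.2 CPM in SC10, 989.8 ± 21.1 in SC07 and 1164 ± 11.5 in SC01. Genes around CCND1 thus differed in the order of the clones. The fibroblast growth factor genes FGF3 and FGF4 and the channel gene ANO1 of this stretch were not among the members, and FGF19 fell just below the minimum.

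On 11q22, YAP1, the growth coactivator of the Hippo pathway (chr11:102110461-102233423), had 98.2, 98.3 and 88.5 CPM in SC10, 67.3, 68 and 69.8 CPM in SC07 and 84.1, 84.6 and 81.2 CPM in SC01. SC10 was the highest and SC07 the lowest, without overlap, and YAP1 had a log2 change of −0.29 ± 0.049 for SC07 over SC01 (adjusted p = 1.18e-05, edgeR). TMEM123, its neighbour, a receptor linked to a form of cell death, had 186, 188 and 185 CPM in SC10, 101, 98.6 and 100.3 CPM in SC07 and 145, 147 and 139 CPM in SC01. The order of the clones was that of YAP1. BIRC2, an inhibitor of apoptosis, had 47.5 ± 0.954 CPM in SC10, 37.1 ± 2.39 in SC07 and 36.5 ± 0.308 in SC01, and its change between SC07 and SC01 missed the threshold (adjusted p = 0.745). The matrix metalloproteinases next to these genes had another order. MMP8, neutrophil collagenase, had 27.4 ± 1.53 CPM in SC10, 18.6 ± 1.83 in SC07 and 66.8 ± 1.8 in SC01, and MMP1, interstitial collagenase, had 0.52 ± 0.0668 CPM in SC10, 0.0773 ± 0.0368 in SC07 and 7.24 ± 1.39 in SC01, both highest in SC01. Of the 7 listed members, 6 were higher and 0 lower in SC10 than in SC07, and 0 higher and 4 lower in SC07 than in SC01. Over all members of 11q the shares were 69.3% and 5.46%, and 33.1% and 34.3%.

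Repair and tumour suppressor genes of chromosome 11 were higher in SC10 than in SC07 in 12 of 16 and lower in 0, where 64.3% of all members of the chromosome were higher and 6.42% lower. In SC07 against SC01, 3 were higher and 7 lower (median −0.17), where 33.5% and 34.6% of all members of the chromosome were. ATM, the kinase that answers DNA breaks (chr11:108222484-108369102), had 189, 197 and 149 CPM in SC10, 169, 164 and 156 CPM in SC07 and 145, 139 and 131 CPM in SC01. SC10 replicate 3 lay below the other SC10 libraries and below all 3 of SC07, and the difference of SC07 and SC01 missed the threshold (adjusted p = 0.0616, edgeR) but passed it without that library (adjusted p = 1.39e-06). CBL, a ubiquitin ligase of receptor kinases, had 102, 104 and 75.4 CPM in SC10, 71.7, 64.3 and 69.7 CPM in SC07 and 45.1, 43.9 and 42 CPM in SC01. SC10 replicate 3 was again the lowest of its clone, and the 3 clones still did not overlap. WT1, a zinc-finger factor of kidney and gonad development, had 2.13 ± 0.457 CPM in SC10, 0.61 ± 0.113 in SC07 and 0.0785 ± 0.0137 in SC01. DDB2, which finds ultraviolet damage in DNA, was highest in SC01, at 101 ± 4.49 CPM in SC10, 92.1 ± 1.39 in SC07 and 140.2 ± 1.31 in SC01.

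Pigment genes of both chromosomes included TYR, the member with the best known role in melanocytes. TYR (chr11:89177452-89295759), whose promoter with its pair of CATGTG elements is shown above, had 817, 815 and 838 CPM in SC10, 908, 897 and 901 CPM in SC07 and 432, 451 and 474 CPM in SC01. It was lowest in SC01 and slightly lower in SC10 than in SC07, without overlap, so it did not follow its chromosome in SC10, and its log2 change for SC07 over SC01 was 1.0 ± 0.042 (adjusted p = 7.48e-18, edgeR). HPS5, a subunit of a complex that builds melanosomes, had 414, 424 and 403 CPM in SC10, 332, 324 and 325 CPM in SC07 and 199, 205 and 201 CPM in SC01. Its clones fell in the order SC10, SC07, SC01. RAB38, which carries tyrosinase to melanosomes, had 211 ± 8.17 CPM in SC10, 169.7 ± 1.64 in SC07 and 148 ± 8.04 in SC01, and TPCN2, a channel of melanosomes, had 179 ± 2.29 CPM in SC10, 137 ± 4.72 in SC07 and 141 ± 1.16 in SC01. MYO7A, a myosin that moves melanosomes in the retina, had 2.43 ± 0.203 CPM in SC10 and 2.58 ± 0.466 in SC07, against 0.498 ± 0.143 in SC01. Of the 9 listed members, 6 were higher and 1 lower in SC10 than in SC07, 7 and 1 in SC10 than in SC01, and 5 and 2 in SC07 than in SC01. On chromosome 10 the shares of all members were 63.1% and 4.96%, 57.9% and 17.6%, and 32.2% and 32.7%. On chromosome 11 they were 64.3% and 6.42%, 55.6% and 17.2%, and 33.5% and 34.6%.

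Metabolic genes of chromosome 11 were higher in SC10 than in SC07 in 20 of 27 and lower in 3, against 64.3% and 6.42% of all members of the chromosome. They were higher in SC10 than in SC01 in 19 and lower in 4, against 55.6% and 17.2%. SC07 was higher than SC01 in 15 and lower in 7 (median 0.23), against 33.5% and 34.6%. DHCR7, the last enzyme of cholesterol synthesis, had 399, 383 and 373 CPM in SC10, 311, 297 and 329 CPM in SC07 and 140.1, 148 and 157 CPM in SC01. The order was SC10, SC07, SC01, as it was for DLAT, a subunit of pyruvate dehydrogenase, at 139 ± 5.58 CPM in SC10, 109 ± 1.59 in SC07 and 68.7 ± 1.69 in SC01. Subunits of complex I of the respiratory chain rose in SC07 over SC01, by 0.85 ± 0.048 for NDUFS3, 0.72 ± 0.047 for NDUFV1 and 0.26 ± 0.06 for NDUFS8. FADS1, a desaturase of long fatty acids, had 141, 148 and 131 CPM in SC10, 69.8, 66.9 and 73 CPM in SC07 and 78.5, 78.2 and 74.8 CPM in SC01. SC10 alone was high, and the smaller difference of SC07 and SC01 (adjusted p = 0.0158, edgeR) missed the threshold when SC01 replicate 1, SC01 replicate 2 or SC07 replicate 2 was left out, with adjusted p-values of 0.0576, 0.0564 and 0.0917. LDHA, lactate dehydrogenase, had small changes, of 0.18 ± 0.041, 0.03 ± 0.041 and −0.15 ± 0.041 for SC10 over SC07, SC10 over SC01 and SC07 over SC01.

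Among members outside these groups, those with the widest differences on chromosome 11 again had several orders. BARX2, a homeobox factor at the tip of 11q (chr11:129375940-129452279), had 12.4, 12.4 and 12.4 CPM in SC10, 0.0304, 0.0258 and 0.0597 CPM in SC07 and 5.19, 5.18 and 4.73 CPM in SC01. It was close to 0 in SC07 and higher in SC10 than in SC01. GLB1L3, a gene of the beta-galactosidase family (chr11:134274245-134319564), had 16, 16.4 and 16.2 CPM in SC10, 1.28, 1.24 and 1.22 CPM in SC07 and 1.29, 0.853 and 1.38 CPM in SC01. SC10 stood alone, and the libraries of SC07 and SC01 overlapped, with 0.08 ± 0.19 for SC07 over SC01 (adjusted p = 0.737, edgeR). SLC43A3, a transporter of purine bases, had 29 ± 0.429 CPM in SC10, 2.38 ± 0.166 in SC07 and 84.7 ± 1.82 in SC01. SYT13, a synaptotagmin, had 109.9, 111 and 111 CPM in SC10, 81, 78 and 81.6 CPM in SC07 and 1.07, 1.17 and 0.928 CPM in SC01, and CEND1, a neuronal gene of cell cycle exit, had 112 ± 3.26 CPM in SC10, 29.2 ± 2.21 in SC07 and 1.47 ± 0.343 in SC01. Both were nearly silent in SC01.

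NNMT, which methylates nicotinamide, had the reverse pattern, at 8.17, 7.68 and 10.2 CPM in SC10, 3.59, 3.71 and 3.49 CPM in SC07 and 173, 175 and 175 CPM in SC01. GRAMD1B, a carrier of cholesterol from the cell membrane, had 1812, 1831 and 1633 CPM in SC10, 1542, 1521 and 1561 CPM in SC07 and 194, 200.3 and 193 CPM in SC01. SC10 and SC07 were high and SC01 was low for GRAMD1B, with 2.98 ± 0.047 for SC07 over SC01 (adjusted p = 2.31e-27, edgeR). SERPINH1, the collagen chaperone, was highest in SC07, at 1.91 ± 0.175 CPM in SC10, 5.63 ± 0.469 in SC07 and 0.312 ± 0.14 in SC01. MICAL2, an enzyme that takes actin filaments apart, was lowest in SC10, at 4.47 ± 0.237 CPM in SC10, 7.66 ± 1.63 in SC07 and 19.1 ± 0.679 in SC01.

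The members cover a part of the rows of each chromosome. Chromosome 10 had 2172 rows with a position, of which 877 had no count in any library, and chromosome 11 had 3181, of which 1308 had none. Protein-coding genes made up 465 of 544 members on chromosome 10 and 708 of 810 on chromosome 11. Of 368 rows of olfactory receptor genes and pseudogenes on chromosome 11, which holds large clusters of them, 295 had no count and 2 were members, OR51B4 and OR51B5 of 11p15. The members nearest the minimum, by the third highest CPM, were ACCSL at 1, DLG2 at 1.005 and GATA3 at 1.012, and the nearest genes below it were AC084337.1 at 0.984 and AP001318.2 and FGF19 at 0.979.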

How the data were processed

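The authors deposited a table of raw read counts for 60675 Ensembl genes in 9 libraries of total RNA extracted with Trizol, per the labels. The submitters' processing notes name featureCounts, HISAT2 and the build GRCh38, without versions. No release of the annotation and no strand setting is given, so counts of overlapping genes, antisense genes and pseudogenes are uncertain. GENCODE 29 gave a position and biotype on GRCh38 for 57055 rows, and 138 tested rows had none.

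The 9 libraries entered 1 robust quasi-likelihood fit in edgeR 4.0.16 (R 4.3.3) after TMM scaling and the filterByExpr filter, which left 18009 genes, and p-values were adjusted by Benjamini-Hochberg with a threshold of 0.05. All 1354 members were among the genes tested. The common biological coefficient of variation was 0.0523. Standard errors come from the log2 change and its F statistic. Levels per library used log2(CPM + 0.5). Arms were divided at 40 Mb of chromosome 10 and 53 Mb of chromosome 11, within the centromeres. Segments were fitted on log2 changes limited to ±1.5.

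Named genes were, per chromosome and comparison, the 4 highest and 4 lowest changes past the threshold without overlap of libraries and with at least 5 CPM in the higher clone, up to 4 members of each of 10 gene lists, members at segment boundaries, and 10 standing genes. Other genes in the text, such as CD59, STIM1, HK1 and LDHA, were chosen after their values were seen. The members and lists were chosen with earlier results of these data known. Alternatives were other scalings and filters, DESeq2 1.42.0, a test against a 1.5-fold change, a block for replicate number, and fits without each library. The fit was tested on simulated data with known changes.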

Additional observations from a re-analysis of the deposited data

How the results depend on the processing

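Counts of members called kept within 1.5 times the reported count under other scalings, other filters, DESeq2 and without any single library. They fell under a test against a 1.5-fold change, to 59 and 103 members of chromosomes 10 and 11 for SC10 over SC07, 128 and 231 for SC10 over SC01, and 103 and 172 for SC07 over SC01.

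Scaling by total counts alone moved the median of all genes to −0.11 for SC10 over SC01 and −0.10 for SC07 over SC01. The medians of chromosomes 10 and 11 then were 0.184 and 0.149 for SC10 over SC01, which is 0.298 and 0.262 above all genes, and −0.121 and −0.125 for SC07 over SC01, which is −0.018 and −0.022 relative to all genes. Under that scaling, 68.5% and 66.4% of the calls for SC10 over SC01 were higher, against 76.6% and 76.4% as reported, and 37.8% and 37.9% of those for SC07 over SC01, against 49.6% and 49.2%. With members limited to 5 CPM in 3 libraries, the medians for SC10 over SC01 were 0.316 and 0.246, and that of chromosome 10 for SC07 over SC01 was 0.023. With protein-coding members alone, they were 0.346 on chromosome 10 for SC10 over SC01, and 0.034 and −0.0083 on chromosomes 10 and 11 for SC07 over SC01. The small median of chromosome 10 for SC07 over SC01 thus changed sign with the filter.

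Leaving out each library in turn gave medians of 0.275 to 0.298 on chromosome 11 for SC10 over SC07, 0.246 to 0.264 on chromosome 11 for SC10 over SC01, −0.022 to 0.0019 on chromosome 10 and −0.030 to −0.015 on chromosome 11 for SC07 over SC01. Deviations of same-numbered libraries correlated at −0.018 to 0.064, and those of differently numbered libraries at −0.075 to 0.0625. No shared deviation was seen, which does not show whether same-numbered libraries were handled together. With replicate number as a block, 370 and 574 members were called for SC10 over SC07, 412 and 600 for SC10 over SC01 and 359 and 559 for SC07 over SC01, against 370, 573, 411, 589, 353 and 551 without it. For named genes, 17 calls were lost and 31 gained, and 0 changed direction while called. These counts cover the other scalings, the replicate block, DESeq2 and the fits without each library. Named genes were not compared under the other filters or under the test against a 1.5-fold change. Calls of ITGB1, YAP1 and ETS1 for SC10 over SC01 were lost with total counts as the scaling. Members near 0 CPM in a clone rest on few counts, and depth limits their changes.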

Other observations

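Members with almost no counts in a clone were described by their counts. LINC01395, a long non-coding RNA near BARX2 at the tip of 11q, had 150 counts over the 3 SC10 libraries and 188 over the 3 SC01 libraries, and 0 in SC07. Against a floor of 3 counts over the clone, it was at least 50.4-fold higher in SC10 than in SC07 and at least 64.9-fold lower in SC07 than in SC01. LMO1, a transcription cofactor on 11p, had 133 counts in SC10, 22 in SC07 and 3 in SC01, a ratio of 43.1 for SC10 over SC01 (95% interval 14.4 to 212) and of 7.08 for SC07 over SC01 (2.13 to 36.9). NRIP3, also on 11p, had 2 counts in SC10, 136 in SC07 and 23 in SC01. These intervals are exact and cover counting error only. LINC01395 and BARX2 thus were both near 0 in the same clone, and NRIP3 was near 0 in SC10, against the direction of its chromosome.

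Short runs of neighbouring members also differed between SC07 and SC01 outside 11p15. From AP002360.1 to PAK1 at 76.44 to 77.47 Mb of 11q, 8 members in a row were called higher in SC07, with log2 changes of 0.16 to 2.37. From CCDC85B to BANF1 at 65.89 to 66 Mb, 7 in a row were called lower in SC07, with changes of −1.60 to −0.21. Runs of this length were shorter than the longest on other chromosomes, which held 14 members higher and 19 lower.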
